A study of Mus musculus with 6 samples.

Results

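The tumour necrosis factor (TNF) superfamily was examined in maps of histone marks from 6 mouse tissue sections. Genes were taken by symbol, as Tnf itself and every gene whose symbol begins with Tnfsf (ligand) or Tnfrsf (receptor) followed by a digit. This gave 32 genes of 19378 in the largest of the deposited matrices, 12 ligands and 20 receptors. Members known under other symbols, such as Lta, Fasl, Cd40 and Fas, are not chosen by that rule and were followed as separate lists.

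Ligands of this superfamily are mostly trimeric proteins on the surface of immune and stromal cells, and some are shed. Their receptors bind TRAF adaptors or death-domain proteins and turn on NF-kB signalling or cell death, and several decoy receptors take up ligand without signalling. In joints the family is known for Tnf, which drives synovial inflammation, for the RANK ligand system of osteoclasts, and for the BAFF and APRIL system that keeps B cells and plasma cells alive. Acetylation of histone H3 at lysine 27 (H3K27ac) marks active promoters and enhancers, trimethylation at lysine 4 (H3K4me3) marks promoters, and trimethylation at lysine 27 (H3K27me3) is laid down by Polycomb at silenced genes.

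The sections lay on DNA arrays whose spots carry barcode pairs, and an antibody to the mark brought protein A-Tn5 to the chromatin, which it cuts and tags. H3K27ac was mapped in a paw with collagen-induced arthritis (CIA) and in a control paw, both adult, labelled 42 days, decalcified and paraffin-embedded, with sections of 4 µm taken around the talus, an ankle bone. H3K27me3, H3K27ac and H3K4me3 were each mapped in 1 section of 16 µm from whole wild-type embryos of stage E11.5, and H3K4me3 in 1 section of 20 µm from the brain of a wild-type adult. In the CIA paw's label the 42 days stand beside the name of the disease, and what they count from is not stated there. The labels used here give no strain, no immunisation protocol and no scheme of animals, so the arthritis model is known only by its name. Each combination of tissue, condition and mark was 1 section, so no spread between animals exists, no test between sections was made, and intervals cover counting error only.

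The files hold signal values per gene and spot that the authors had quantile-normalised, and reads were recovered from the tied ranks in them. In all, 15064699 reads were recovered in 3450 spots. The CIA paw had 5344438 reads in 943 spots and the control paw 5981684 reads in 554 spots. The embryo sections had 749650 reads for H3K27me3, 548923 for H3K27ac and 403483 for H3K4me3, in 248 to 254 spots each, and the brain had 2036521 reads in 1200 spots. The superfamily took 0.0979% to 0.190% of a section's reads. Across genes, reads followed gene length only weakly (Spearman's rho 0.144 to 0.193) and the region counted per gene is not given in the sources used here, so levels are compared between sections for the same gene and not between genes. A relative level below is a gene's mean reads per spot divided by the mean over all genes held by both sections compared. The log2 ratio is taken of 2 relative levels after 0.1 is added to each, and a gene is counted as higher or lower at 2-fold or more.

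The matrices differ in which genes they list. Of the 32 members, 19 were listed in the CIA paw and all 32 in the control paw, a share of 59.4% against 57.4% for all genes. The 13 members not in the CIA paw's table were Tnf, Tnfsf8, Tnfsf11, Tnfsf12, Tnfsf13, Tnfsf15, Tnfsf18, Tnfrsf1a, Tnfrsf8, Tnfrsf13b, Tnfrsf18, Tnfrsf21 and Tnfrsf22. They had 44 to 563 reads in the control paw (median 86), against 28 to 1508 (median 171) for the members listed in both paws. Tnf itself and its receptor Tnfrsf1a, and the RANK ligand gene Tnfsf11, were therefore not compared between the paws. The embryo tables listed 32 members for H3K27me3, 31 for H3K27ac (not Tnfsf4) and 31 for H3K4me3 (not Tnfrsf21), and the brain table listed 18. Members in all 6 tables numbered 16. Among the members held by the control paw alone, Tnfrsf22 had 138 reads, Tnfsf15 112, Tnfsf12 106, Tnfrsf1a 86, Tnfrsf18 49, Tnfrsf8 45, and Tnfsf11, Tnfsf8 and Tnfsf18 had 44 each. The reads of Tnfsf12 were the same in every spot as those of Tnfsfm13, its readthrough gene with Tnfsf13, so both symbols count the same 106 reads.

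In the paws the members that differed most belong to the BAFF and APRIL system. H3K27ac reads at Tnfsf13b, which encodes the B cell survival ligand BAFF, and at Tnfrsf17, which encodes BCMA, the receptor of plasma cells, were lower in the CIA paw. Reads at Tnfrsf13c, which encodes the BAFF receptor of B cells, were higher there. Of 19 members compared, 2 were higher in the CIA paw (10.5%, against 11.6% of all 11130 genes compared) and 3 were lower (15.8%, against 7.88% of all genes). The counts rest on few genes, and the median log2 ratio of the members was 0.13, against 0.11 for all genes. The members' median thus lay close to that of all genes, and the differences described below are those of single members.

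**Figure D1:**
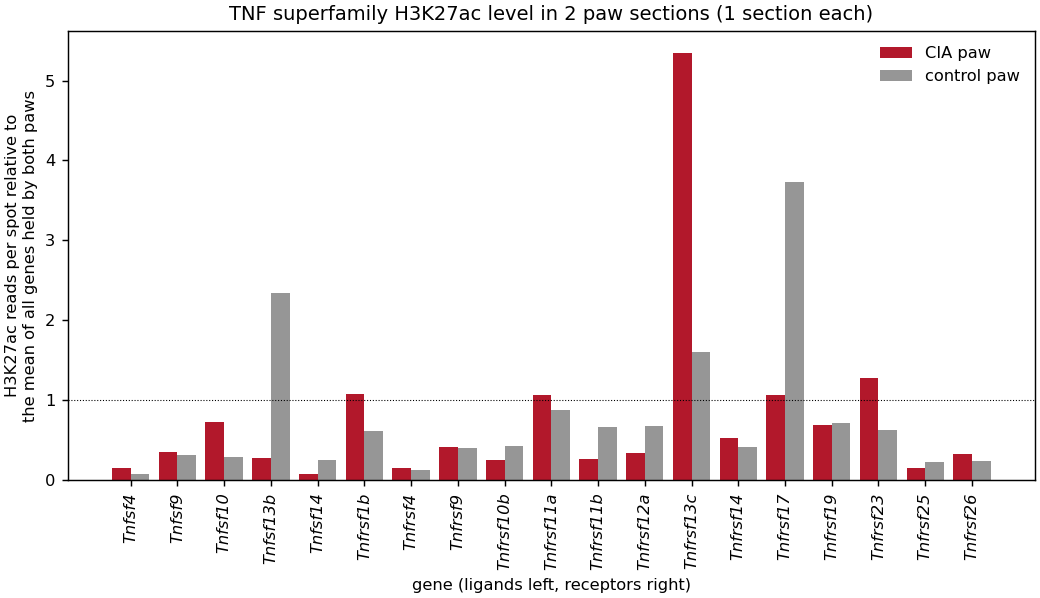
Relative H3K27ac level (reads per spot over the mean of all genes held by both paws) of the 19 members held by both sections, with the CIA paw in red and the control paw in grey, 1 section each. Tnfrsf13c stands at 5.35 in the CIA paw against 1.60 in the control paw, while Tnfsf13b (0.275 against 2.34) and Tnfrsf17 (1.06 against 3.73) stand lower in the CIA paw.

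The DNA just before the start of the genes on which the paw comparison turns is printed for orientation, 250 bases each from RefSeq on the build GRCm38.p6, on the gene's own strand and with CG dinucleotides in capitals. Methylation and Polycomb act differently at promoters rich and poor in CG, which is why these letters are marked. The intervals are chr15:82224381-82224630 on the minus strand for Tnfrsf13c, chr8:10006217-10006466 on the plus strand for Tnfsf13b, chr16:11313559-11313808 on the plus strand for Tnfrsf17 and chr3:27316827-27317076 on the plus strand for Tnfsf10.
Tnfrsf13c: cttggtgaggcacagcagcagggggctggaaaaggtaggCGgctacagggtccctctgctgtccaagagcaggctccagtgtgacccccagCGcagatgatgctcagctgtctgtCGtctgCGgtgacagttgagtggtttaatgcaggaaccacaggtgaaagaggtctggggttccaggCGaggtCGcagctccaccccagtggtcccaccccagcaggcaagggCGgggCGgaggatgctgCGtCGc
Tnfsf13b: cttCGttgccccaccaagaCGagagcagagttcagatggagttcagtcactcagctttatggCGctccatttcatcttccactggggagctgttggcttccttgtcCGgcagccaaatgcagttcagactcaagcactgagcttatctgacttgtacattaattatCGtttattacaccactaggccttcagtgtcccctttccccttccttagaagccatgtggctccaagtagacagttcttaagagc
Tnfrsf17: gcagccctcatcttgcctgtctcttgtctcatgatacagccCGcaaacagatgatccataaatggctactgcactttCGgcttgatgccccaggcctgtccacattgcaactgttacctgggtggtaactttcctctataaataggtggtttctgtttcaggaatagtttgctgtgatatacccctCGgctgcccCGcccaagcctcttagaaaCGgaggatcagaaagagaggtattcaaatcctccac
Tnfsf10: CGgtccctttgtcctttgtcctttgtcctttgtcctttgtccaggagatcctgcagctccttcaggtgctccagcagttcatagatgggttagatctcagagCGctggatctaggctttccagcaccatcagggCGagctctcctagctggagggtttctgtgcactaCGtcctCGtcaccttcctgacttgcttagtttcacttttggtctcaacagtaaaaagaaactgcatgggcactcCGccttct
These windows hold 10 CG dinucleotides at Tnfrsf13c, 5 at Tnfsf13b, 5 at Tnfrsf17 and 6 at Tnfsf10, against a median of 8 over the 25 members with an entry and of 6 over all 27025 promoters of the table. Over the members the number runs from 2 to 31, and no motif or CG count is offered as a reason for any difference. The reads were aligned to another build and their window is not given, so the letters are context and not the measured interval.

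Among the ligands, Tnfsf13b had 132 reads in the CIA paw and 948 reads in the control paw. Its relative level was 0.275 in the CIA paw and 2.34 in the control paw, a log2 ratio of -2.70 (without the added constant -3.09, 95% counting interval -3.36 to -2.83). A read of the gene was seen in 12.9% of spots of the CIA paw and in 70.8% of spots of the control paw, although the control spots were also deeper, with a median of 10114.5 reads against 5296 reads in the CIA paw. Tnfsf10, which encodes the death ligand TRAIL, lay the other way. It had 345 reads in the CIA paw and 114 reads in the control paw, or relative levels of 0.718 and 0.282, a log2 ratio of 1.10 (without the constant 1.35, interval 1.04 to 1.67). The other 3 ligands stayed within 2-fold. Tnfsf14, which encodes LIGHT, had 38 reads in the CIA paw and 102 in the control paw and fell just short of the threshold at -0.97. Tnfsf4, the OX40 ligand gene of antigen-presenting cells, had 73 reads in the CIA paw and 28 in the control paw, a log2 ratio of 0.58. Tnfsf9, the gene of the T cell costimulator 4-1BB ligand, had 170 reads in the CIA paw and 127 in the control paw (0.13, with a counting interval that spans 0).

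Among the receptors, Tnfrsf13c had 2569 reads in the CIA paw and 648 reads in the control paw. Its relative level was 5.35 in the CIA paw and 1.60 in the control paw, a log2 ratio of 1.68 (without the constant 1.74, interval 1.62 to 1.87). It gave a read in 835 of 943 spots of the CIA paw (88.5%) and in 335 of 554 spots of the control paw (60.5%), so it was seen in more spots although the CIA spots were shallower. Tnfrsf17 had 508 reads in the CIA paw and 1508 reads in the control paw, relative levels of 1.06 and 3.73 and a log2 ratio of -1.72 (without the constant -1.82, interval -1.96 to -1.67). Its spots with a read made up 38.7% in the CIA paw and 81.4% in the control paw. The third receptor of this system, Tnfrsf13b (TACI), and the second ligand, Tnfsf13 (APRIL), were not in the CIA paw's table and had 127 and 81 reads in the control paw. So of the 5 genes of the BAFF and APRIL system, 3 could be compared, and these 3 were all past 2-fold. The BAFF receptor was higher in the CIA paw and the ligand BAFF and the receptor BCMA were lower. Of all genes compared, 11.6% were higher and 7.88% lower. These 3 genes are described together because they differed most in these same reads, so their count is no further result about the system.

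B cell and plasma cell markers were looked at beside these genes, because fewer cells of a type and less of the mark per cell cannot be told apart in spots that hold several cells. Of 10 markers listed for that purpose 7 were held by both paws, and their summed relative level was 4.21 in the CIA paw and 12.6 in the control paw. The B cell surface gene Ms4a1 (267 reads in the CIA paw, 2465 in the control paw), the plasma cell factor Xbp1 (453 and 1121) and the B cell receptor component Cd79a (291 and 572) were lower in the CIA paw, with log2 ratios of -3.24, -1.46 and -1.10. They made up 42.9% of the 7, against 7.88% of all genes lower and 11.6% higher. The list holds few genes, so this count is not read as a shift of its cell types. The sum of Xbp1 is a lower bound in at least 1 paw. None of the 7 was higher, none was at 0 in either paw, and Pax5, which defines the B lineage, had 162 reads in the CIA paw and 79 in the control paw (0.57). Blk (355 reads in the CIA paw, 365 in the control paw, -0.26), Prdm1 (287 and 295, -0.25) and Sdc1 (207 and 194, -0.13) lay within 2-fold. The summed level leans on Ms4a1, which had the most reads of the list in the control paw, so it does not show a drop across the list. Ms4a1, Xbp1 and Cd79a were thus lower as Tnfsf13b and Tnfrsf17 were, and opposite to Tnfrsf13c, whereas Pax5, Blk, Prdm1 and Sdc1 stayed within 2-fold. The part of these markers in the members' differences was not tested.

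The RANK system, which controls osteoclasts, could be compared at 2 of its 3 genes. Tnfrsf11b encodes osteoprotegerin, the soluble decoy that holds RANK ligand. It had 127 reads in the CIA paw and 266 reads in the control paw, relative levels of 0.264 and 0.657 and a log2 ratio of -1.05 (without the constant -1.31, interval -1.63 to -1.003). Tnfrsf11a, the gene of the receptor RANK, had 508 reads in the CIA paw and 356 in the control paw (0.24), within 2-fold. Of 7 osteoclast genes held by both paws, Car2 (2.36) and Nfatc1 (1.26) were higher in the CIA paw. The integrin gene Itgb3 (-2.93) and the cell fusion gene Dcstamp (-1.64) were lower, so that list had no common direction. Each direction held 28.6% of the list, against 11.6% of all genes higher and 7.88% lower. Of 10 osteoblast and stromal genes, Col1a1 (2897 reads in the CIA paw, 502 in the control paw, 2.19) and Phex (284 and 79, 1.23) were higher in the CIA paw. They made up 20% of the list, against 11.6% of all genes. None was lower, and the summed relative levels were 20.0 in the CIA paw and 11.3 in the control paw. These stromal genes lay opposite to Tnfrsf11b, and their part in its ratio was not tested. The osteoprotegerin call is the least secure of the 5, since it ended under 4 of 14 other settings.

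The receptor of Tnf that could be compared, Tnfrsf1b, and the receptors of TRAIL and TWEAK held by both paws lay within 2-fold. Tnfrsf1b, the inducible receptor of Tnf on leukocytes, had 518 reads in the CIA paw and 246 in the control paw (0.74). Tnfrsf23, a mouse decoy receptor for TRAIL, had 613 reads in the CIA paw and 251 in the control paw, and its log2 ratio of 0.93 was the nearest to the threshold from inside on the higher side. Tnfrsf10b, the signalling receptor for TRAIL, lay lower with 120 reads in the CIA paw and 171 in the control paw (-0.58). The TRAIL ligand gene and its decoy receptor gene thus had more reads in the CIA paw, the decoy within 2-fold, and the signalling receptor gene had fewer. Tnfrsf22, Tnfrsf23 and Tnfrsf26 are close relatives, and how reads that fit several copies were treated is not given in the sources used here, so their values are uncertain. Tnfrsf12a, the receptor of TWEAK, had 164 reads in the CIA paw and 272 in the control paw (-0.81).

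Of the costimulatory receptors of T cells among the members, Tnfrsf4 and Tnfrsf9 were held by both paws and lay within 2-fold, whereas Tnfrsf8 and Tnfrsf18 could not be compared. Tnfrsf4 (OX40) had 73 reads in the CIA paw and 48 in the control paw (0.21), and Tnfrsf9 (4-1BB) had 196 and 161 reads in the same order (0.03). Tnfrsf14, the receptor of LIGHT, had 251 reads in the CIA paw and 167 in the control paw (0.28), and Tnfrsf25, the receptor of the ligand encoded by Tnfsf15, had 69 and 91 reads (-0.41). Tnfrsf26 (0.32) and Tnfrsf19 (-0.03) complete the 14 receptors compared. In 4 of the 19 members, the counting interval of the ratio spanned 0: Tnfsf9, Tnfrsf4, Tnfrsf9 and Tnfrsf19.

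**Figure D2:**
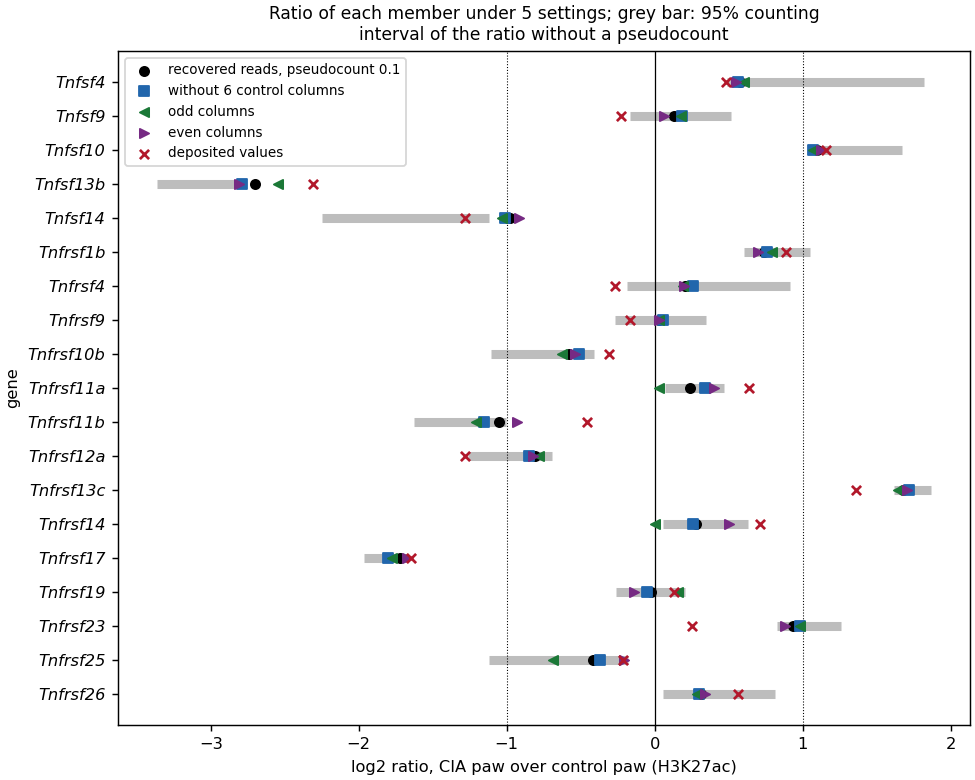
Log2 ratio of the CIA paw over the control paw for 19 members (ligands above, receptors below) under 5 settings, with the 95% counting interval of the ratio without a constant as a grey bar and dotted lines at 2-fold. Tnfsf13b, Tnfrsf17, Tnfrsf13c and Tnfsf10 lie beyond 2-fold under all 5 settings drawn, whereas Tnfrsf11b returns inside with the deposited values and with even columns.

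Over the 14 other settings computed for the paws, Tnfsf13b stayed lower beyond 2-fold in all 14, with log2 ratios of -3.09 to -1.39. Tnfrsf13c stayed higher in 13 (0.72 to 1.82) and Tnfrsf17 lower in 13 (-1.85 to -0.82), and both came inside 2-fold when the share of spots with a read replaced the mean. Tnfsf10 stayed higher in 11 (0.42 to 1.32) and Tnfrsf11b lower in 10 (-1.28 to -0.39).

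The control paw holds array columns 1, 5, 9, 13, 17 and 21, in which some genes have far more reads than their share, and these columns bear on members that could not be compared. They held 12.9% of the control paw's reads in 129 spots. Tnfrsf21, which encodes death receptor 6, had 397 of its 563 reads there, 5.46 times its share, and Tnf had 136 of its 393 reads there, 2.68 times its share. Tnfsf8, the CD30 ligand gene, had 14 of 44 reads there (2.46 times). The other members had 0.44 to 1.90 times their share, so 3 of 32 members were over 2 times. Of all genes with 100 or more reads 6.05% were over 2 times. That share leaves out genes with fewer reads, such as Tnfsf8, so it is not a like measure for the members. Without these columns the relative level of Tnfrsf21 in the control paw was 0.618, against 1.82 with them, and that of Tnf 0.956, against 1.27. In the CIA paw, the same columns held 0.67 to 1.27 times the share of each member.

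Without these columns of the control paw, the 5 members past 2-fold stayed past it, with Tnfrsf13c at 1.72, Tnfsf10 at 1.07, Tnfrsf11b at -1.15, Tnfrsf17 at -1.80 and Tnfsf13b at -2.79. Tnfsf14 joined them on the lower side at -1.01. Tnfsf13b, Tnfrsf17 and Tnfrsf11b had less than their share in the columns (0.56, 0.61 and 0.44 times), and leaving the columns out moved their ratios slightly away from 0.

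The layout on the array was measured for members with 200 or more reads, 8 of 19 in the CIA paw and 11 of 32 in the control paw. A variance over mean near 1 is what a constant share of each spot's reads would give. For the 8 members in the CIA paw, the variance over the mean of reads per spot, after scaling to spot totals, was 0.935 to 1.13, and Moran's I, a measure of likeness between neighbouring spots, was -0.04 to 0.04. Among the 11 members of the control paw, Tnfrsf21 (variance over mean 5.26, Moran's I 0.20) stood out in both measures and Tnf (1.73 and 0.05) in the first only. Both genes are crowded in the 6 columns. Over all genes of the control paw with 200 or more reads, the medians were 1.05 and 0.01 and the 90th percentiles 1.48 and 0.07. In the CIA paw these medians were 1.02 and 0.003, and the 90th percentiles 1.15 and 0.04. Tnfrsf17 was at 1.14 and 0.06, and Tnfsf13b at 0.97 and 0.00. In bands of 10 array rows with at least 20 spots, which leaves out the top band of the control paw (8 spots), Tnfrsf13c had 4.16 to 5.32 reads per 10000 in the 6 bands of the CIA paw and 1.02 to 1.16 in the 5 bands of the control paw. Tnfrsf17 had 0.82 to 1.03 in the CIA paw and 2.34 to 2.70 in the control paw, and Tnfsf13b had 0.20 to 0.36 and 1.40 to 1.77. For Tnfsf10 the bands ran from 0.51 to 0.77 in the CIA paw and from 0.14 to 0.25 in the control paw. The bands of the paws did not overlap for these 4 genes, but they did for Tnfrsf11b (0.16 to 0.36 in the CIA paw and 0.33 to 0.52 in the control paw). Bands were computed only for the 5 members past 2-fold in the same reads. No share of all genes whose bands lay apart was computed, so this restates the calls and adds no support to them. In the top band of the control paw, 9 reads of Tnfrsf13c gave 1.99 per 10000. Bands of the same section share their library and are no replicates.

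**Figure D3:**
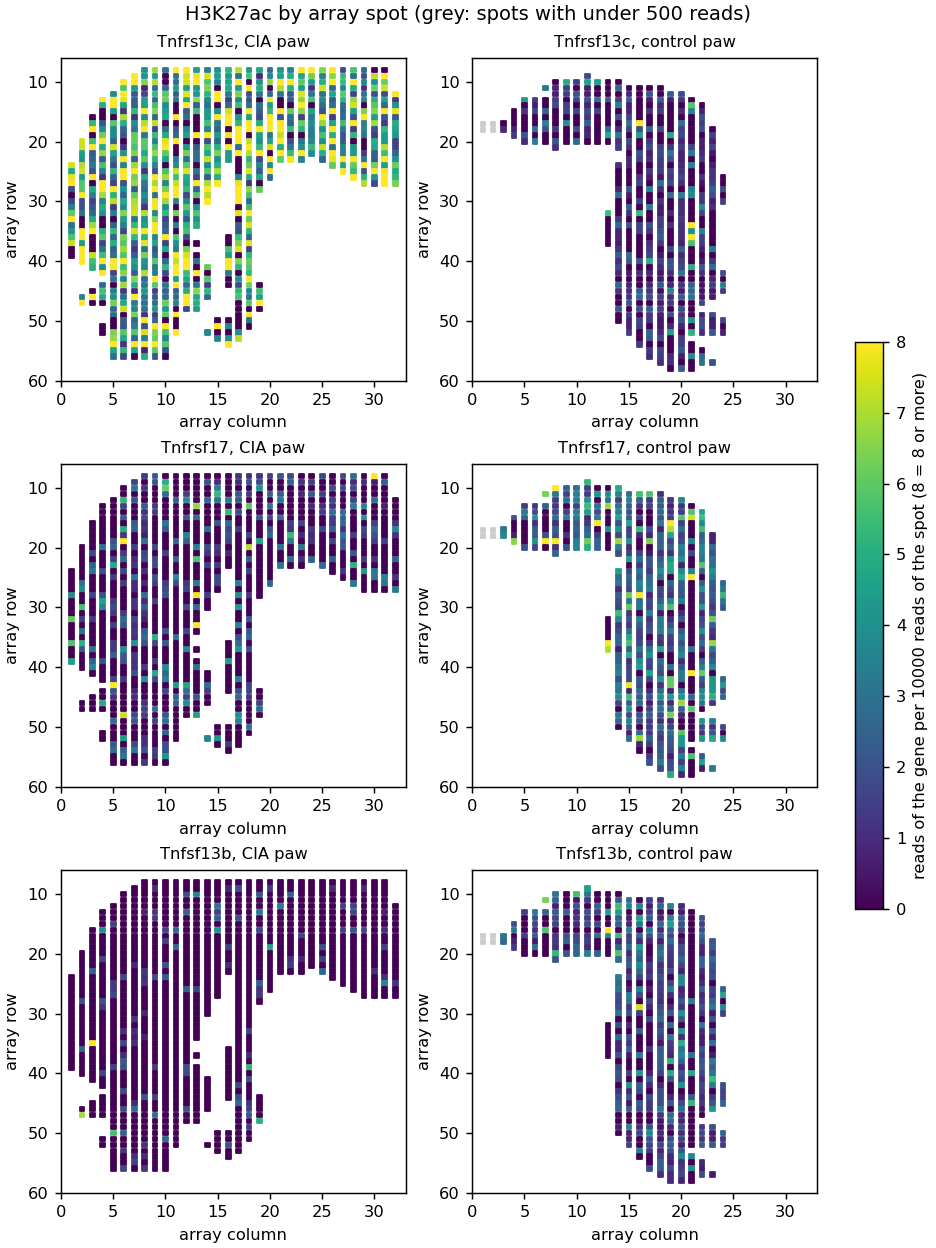
Reads of Tnfrsf13c, Tnfrsf17 and Tnfsf13b per 10000 reads of each array spot (colour, from 0 to 8 or more) by array column and row, in the CIA paw on the left and the control paw on the right, with spots under 500 reads in grey. Tnfrsf13c is brighter in the CIA section, while Tnfrsf17 and Tnfsf13b are brighter in the control section.

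Superfamily genes under other symbols gave a similar picture of single differences. Of 6 such receptors held by both paws, Cd27, a costimulatory receptor of T and B cells, was higher in the CIA paw (401 reads, against 133 in the control paw, 1.13). That is 16.7% of the list, against 11.6% of all genes, and none was lower. Cd40, the receptor of B cells and antigen-presenting cells, had 436 reads in the CIA paw and 188 in the control paw (0.84), within 2-fold. Of 2 such ligands none was past 2-fold. Lta, which lies next to Tnf, had 256 reads in the CIA paw and 346 in the control paw (-0.59).

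Of 17 adaptors, kinases and ubiquitin enzymes of TNF receptor signalling held by both paws, 3 were higher in the CIA paw (17.6%, against 11.6% of all genes). Lower was 1 (5.88%, against 7.88% of all genes), and their median log2 ratio was 0.40, against 0.11 for all genes. Ripk1, the kinase at the branch between NF-kB signalling and cell death, had 1574 reads in the CIA paw and 56 in the control paw (3.82). Traf2, an adaptor of many of these receptors, had 1015 and 312 reads (1.35). The subunits of the linear ubiquitin ligase complex went opposite ways: Rbck1 had 5278 reads in the CIA paw and 320 in the control paw (3.64), and Rnf31 had 363 and 6397 (-4.22). The sums of Rbck1 and Rnf31 are lower bounds in at least 1 paw, so these ratios may be off by more than their counting error. Of 13 NF-kB subunits, targets and feedback genes, Rel (1.18) and the NF-kB inhibitor gene Tnfaip3 (1.06) were higher in the CIA paw. The chemokine gene Ccl20 (-2.09) and the adhesion gene Icam1 (-1.48) were lower, so each direction held 15.4% of that list, and the median was -0.03. Il6 lay at 1.00, just under the threshold before rounding, with 157 reads in the CIA paw and 46 in the control paw.

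Other cell types of the paw were checked with marker lists. Of the T and NK cell markers held by both paws 1 of 6 was higher in the CIA paw and none was lower (summed relative level 10.8 in the CIA paw and 7.68 in the control paw), and of the macrophage markers none of 5 passed 2-fold (2.28 and 2.13). Of 8 neutrophil markers 1 was lower and none higher (3.67 and 7.67), and of 6 keratinocyte markers 2 were higher and none lower (10.3 and 5.42). Of 7 skeletal muscle markers 2 were higher and none lower (8.14 and 4.51), of 4 cartilage markers 1 was lower and none higher (1.95 and 3.05), and of 5 synovial fibroblast markers none passed 2-fold (4.38 and 4.35). Of all genes compared, 11.6% were higher and 7.88% lower, and each list holds few genes, so no count is read as a shift of its cell type. A summed level can rest largely on 1 gene, as that of the neutrophil list does on Cebpe (252 reads in the CIA paw, 1305 in the control paw). No marker held by both paws had 0 reads in either. How far these cell types bear on the members' ratios was not tested.

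In the embryo, the mark with the most reads at superfamily genes relative to the section was H3K27me3 for some members and H3K27ac for others. Tnf, Tnfrsf10b and Tnfrsf23 stood out under H3K27me3, and Tnfsf9 and Tnfsf10 under H3K27ac. The sequences before Tnf and Tnfrsf23 are printed because both genes had many reads of the Polycomb mark, again as 250 bases from RefSeq on GRCm38.p6 with CG in capitals. They lie at chr17:35202008-35202257 and chr7:143685876-143686125, both on the minus strand.
Tnf: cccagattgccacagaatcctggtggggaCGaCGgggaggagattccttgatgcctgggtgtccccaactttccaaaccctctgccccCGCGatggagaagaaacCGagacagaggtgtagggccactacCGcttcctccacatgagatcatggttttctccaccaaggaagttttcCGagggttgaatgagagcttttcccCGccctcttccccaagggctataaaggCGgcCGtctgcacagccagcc
Tnfrsf23: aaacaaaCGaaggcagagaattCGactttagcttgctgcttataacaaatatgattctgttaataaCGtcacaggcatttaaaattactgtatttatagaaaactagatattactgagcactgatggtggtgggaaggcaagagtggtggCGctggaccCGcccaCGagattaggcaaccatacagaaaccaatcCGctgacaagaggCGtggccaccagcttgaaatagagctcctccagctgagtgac
The windows hold 10 and 8 CG dinucleotides. The letters TATAAA, searched on both strands, begin 29 bases before the start of Tnf, 158 bases before that of Tnfrsf23 and 114 bases before that of Tnfrsf17. They occur in 5 of 25 members (20%) and in 12.97% of all promoters of the table. The consensus motif of NF-kB, searched on both strands, was matched in 1 of 25 members (Tnfrsf8) and in 3.75% of all promoters. A match or its lack says nothing here about binding.

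Between H3K27me3 and H3K27ac, 6 of 31 members were higher under H3K27me3 (19.4%, against 10.4% of all 18653 genes compared) and 3 were lower (9.68%, against 14.1%). All 9 had 20 or more reads in the higher section, but 17 of the 31 members had fewer than 20 under both marks, so the depth could not show a difference for many. With a pseudocount of 1 the count of higher members was 3, given without the share of all genes at that setting. The median log2 ratio was -0.12 for the members and -0.12 for all genes.

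Tnf had 438 reads under H3K27me3, 21 under H3K27ac and 118 under H3K4me3. Its log2 ratio was 3.76 for H3K27me3 over H3K27ac (without the constant 3.93, interval 3.30 to 4.64) and -2.75 for H3K27ac over H3K4me3 (without the constant -2.92, interval -3.66 to -2.24). Relative to the section means, Tnf thus stood higher under H3K27me3 (11.1) and H3K4me3 (5.28) than under acetylation (0.725). The ratio of H3K27me3 over H3K4me3 was 1.00, at the threshold itself, and came inside it under 6 of 12 other settings. Tnf shares its reads with its neighbour Lta: over spots, Pearson's r between the 2 genes was 0.971 under H3K27me3 (438 reads at Tnf and 410 at Lta, 254 spots) and 0.903 under H3K4me3 (118 and 96, 248 spots), so these reads cannot be given to 1 of the 2 genes. In the control paw it was 0.803 (393 and 346, 554 spots). The spots share a library and vary in depth, which also enters these correlations.

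The receptor genes for TRAIL had H3K27me3 reads as well. Tnfrsf10b had 120 reads under H3K27me3, 5 under H3K27ac and 5 under H3K4me3, and its log2 ratio was 3.52 over H3K27ac and 3.22 over H3K4me3. Tnfrsf23 had 175, 10 and 9 reads under the marks in that order, with ratios of 3.34 and 3.11. The ligand lay opposite: Tnfsf10 had 13 reads under H3K27me3, 122 under H3K27ac and 7 under H3K4me3, a ratio of -3.33 for H3K27me3 over H3K27ac and of 3.33 for H3K27ac over H3K4me3. In these embryo sections the genes of the signalling TRAIL receptor and of this decoy thus had far more reads under the Polycomb mark than under the active marks, and the gene of the ligand had most under acetylation. The related decoy gene Tnfrsf22 did not share this, with 3, 4 and 3 reads.

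Among the remaining ligands, Tnfsf9 had 46 reads under H3K27me3, 127 under H3K27ac and 4 under H3K4me3. It was lower under H3K27me3 than under H3K27ac (-1.83) and higher than under H3K4me3 (2.12), and its ratio of H3K27ac over H3K4me3 was 3.95. Its receptor gene Tnfrsf9 had 17, 14 and 7 reads. Tnfsf13 had 52 reads under H3K27me3, 8 under H3K27ac and 7 under H3K4me3 (1.91 and 1.72 over the active marks), of which a part is shared with the neighbouring gene Senp3 (59 reads under H3K27me3, Pearson's r 0.805 over 254 spots). Tnfsf15, whose product acts on T cells and vessels, had 42, 11 and 6 reads (1.27 and 1.60).

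Among the remaining receptors, Tnfrsf19, a receptor of embryonic and epithelial tissue known as TROY, had 50 reads under H3K27me3, 16 under H3K27ac and 10 under H3K4me3 (1.06 and 1.26). Tnfrsf12a had 7, 20 and 8 reads and was lower under H3K27me3 than under H3K27ac (-1.51), with a counting interval without the constant of -3.45 to -0.66. In the embryo H3K27ac section its reads followed those of the neighbour Cldn6 (42 reads, r 0.702 over 251 spots), and in the control paw those of Thoc6 (270 reads against 272, r 0.944), so its reads belong to a stretch with several genes.

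The BAFF receptor gene Tnfrsf13c had 176 reads under H3K27me3, 65 under H3K27ac and 45 under H3K4me3, with log2 ratios of 0.96 and 1.05 for H3K27me3 over the active marks. Tnfsf13b had 20, 11 and 2 reads (0.33 and 1.63), and Tnfrsf17 had 54, 43 and 27 (-0.11 and 0.11). The members that differed between the paws in opposite directions thus had no common leaning to a mark in the embryo, and the counting intervals of all 3 ratios of Tnfrsf17 spanned 0. Tnfrsf11a had 64, 24 and 27 reads, Tnfrsf11b 11, 10 and 4, and Tnfsf11 a single read under each mark, which allows no comparison. Tnfrsf1a had 8, 13 and 9 reads and Tnfrsf1b 30, 37 and 18, so neither receptor gene was higher under H3K27me3 as Tnf was. Few reads fell on Tnfsf4 (6 under H3K27me3 and 2 under H3K4me3), Tnfrsf4 (5, 5 and 2), Tnfrsf8 (10, 3 and 6), Tnfrsf13b (8, 10 and 10), Tnfrsf14 (14, 7 and 7), Tnfrsf21 (5 and 5, without H3K4me3), Tnfrsf25 (3, 3 and 2) and Tnfrsf26 (16, 13 and 4). At this depth no 2-fold difference was detectable for most of these.

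**Figure D4:**
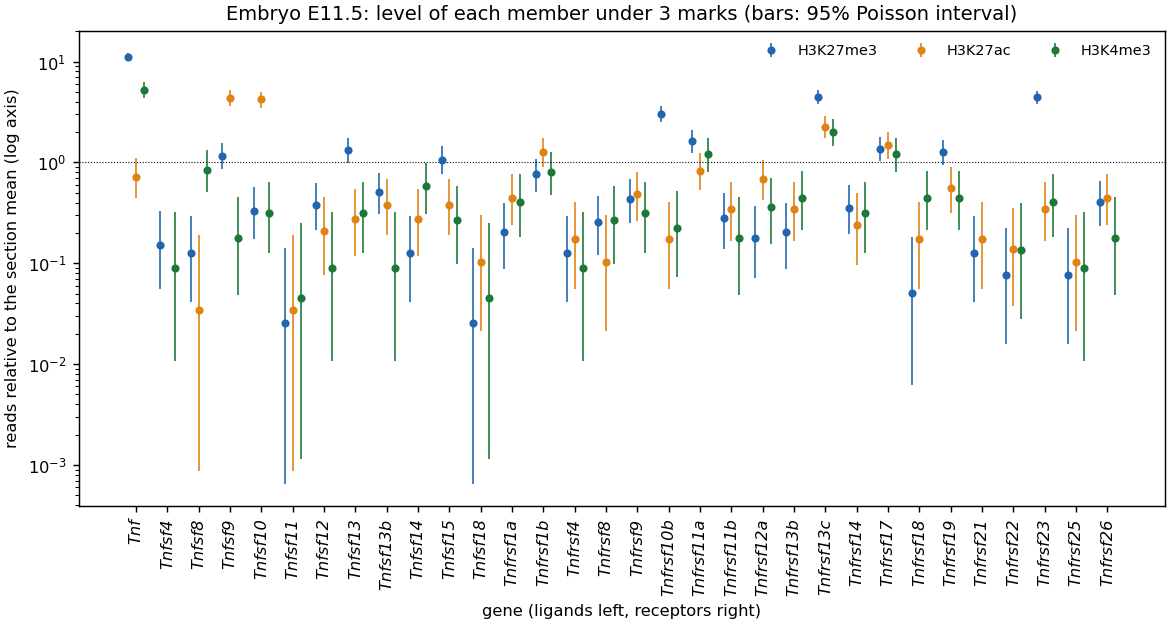
Relative level (reads over the section mean, log axis) of the members in the E11.5 embryo under H3K27me3 (blue), H3K27ac (orange) and H3K4me3 (green), 1 section each, with 95% Poisson intervals as bars. For Tnf, Tnfrsf10b and Tnfrsf23 the blue point is the highest of the 3, and for Tnfsf9 and Tnfsf10 the orange one, while the intervals of the 3 marks overlap for many members with few reads.

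Between H3K27me3 and H3K4me3, 10 of 31 members were higher under H3K27me3 (32.3%, against 15.1% of all 17837 genes compared) and 3 were lower (9.68%, against 10.4%). The median was 0.23 for the members and 0.08 for all genes. The count of 10 rests on genes with few reads: it was 2 with a pseudocount of 1, and 2 of the 4 members left when genes under 100 reads were left out. The shares of all genes under these settings are not set beside these counts. Tnfrsf13c came inside 2-fold under 5 of 12 other settings. Of the 10, the 9 with at least 20 reads were Tnf, Tnfsf9, Tnfsf13, Tnfsf13b, Tnfsf15, Tnfrsf10b, Tnfrsf13c, Tnfrsf19 and Tnfrsf23, and the remaining one was Tnfsf12 (15 and 2 reads). The 3 lower ones, Tnfsf8, Tnfsf14 and Tnfrsf18, had 10 to 19 reads under H3K4me3 and 2 to 5 under H3K27me3. Tnfrsf18 encodes the T cell receptor GITR, and its ligand gene Tnfsf18 had 1, 3 and 1 reads under the 3 marks. The same H3K27me3 section stands in this comparison and in the one with H3K27ac, so the 2 counts are not independent.

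Between H3K27ac and H3K4me3, 3 of 30 members were higher under H3K27ac (against 17.8% of all 17762 genes compared) and 3 were lower (against 9.17%). The higher ones were Tnfsf9, Tnfsf10 and, with 11 and 2 reads, Tnfsf13b, and the lower ones Tnf and, with under 20 reads, Tnfsf8 and Tnfrsf18. Of 11 ligands 3 were higher and 2 lower, and of 19 receptors none was higher and 1 was lower. Fewer than 20 reads under both marks were found for 22 of the 30 members, so neither group is read as leaning to a mark.

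In the brain, 18 members could be set against the embryo under H3K4me3. Of these, 8 were higher in the brain (44.4%, against 31.4% of all 11127 genes compared) and 2 were lower (11.1%, against 5.72%). The median log2 ratio was 0.89 for the members and 0.66 for all genes. Relative to the median of all genes, 2 members were higher and 2 lower, so most of the 8 lay within 2-fold of the shift that all genes show. With a pseudocount of 1, which shrinks low genes in general, no member was higher or lower. The shares of all genes after centring and at this pseudocount are not set beside these counts, so the counts do not set the members apart.

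The 2 members that stayed higher after that centring were Tnfsf13b and Tnfrsf14. Tnfsf13b had 87 reads in the brain and 2 in the embryo (relative levels 0.478 and 0.0722, log2 ratio 1.75). Tnfrsf14 had 192 reads in the brain and 7 in the embryo (1.05 and 0.253, log2 ratio 1.71). The embryo counts are so low that the intervals without the constant ran from 0.83 to 5.80 and from 0.99 to 3.40. The other members counted as higher were Tnfsf9 (105 reads in the brain, 4 in the embryo), Tnfrsf10b (118 and 5), Tnfrsf23 (165 and 9), Tnfrsf19 (179 and 10), Tnfrsf26 (80 and 4) and Tnfrsf13c (639 and 45), with log2 ratios of 1.07 to 1.47.

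Tnf was lower in the brain, with 374 reads against 118 in the shallower embryo section, relative levels of 2.05 and 4.26 and a log2 ratio of -1.02 (interval without the constant -1.35 to -0.74), a call that ended under 5 of 12 other settings. Tnfsf14 was lower as well, with 25 reads in the brain and 13 in the embryo (-1.26), a call that ended with a pseudocount of 1. It also ended, at a ratio of 0, without the highest 5% of each gene's own spot values, which held all reads of Tnfsf14 in both sections. Tnfrsf17 had 181 and 27 reads (0.03) and Tnfrsf11a 233 and 27 (0.36), both below the median of all genes. Tnfrsf1b, which microglia are known to express, had 166 and 18 reads (0.43). The members not yet named lay within 2-fold, with Tnfsf10 just under it before rounding (log2 ratio 1.00, 110 reads in the brain, 7 in the embryo), Tnfrsf12a at 0.78, Tnfrsf9 at 0.52, Tnfrsf11b at 0.51 and Tnfrsf8 at 0.16. Of 5 microglia markers held by both sections 1 was higher in the brain (20%, against 31.4% of all genes) and none was lower. Of 7 neuronal markers 2 were higher (28.6%, against 31.4% of all genes) and none was lower, and their median of 0.38 lay below the 0.66 of all genes. None was at 0, and the highest log2 ratio of this list was 3.19. Its count and median do not set the brain apart from the embryo beyond the shift of all genes. Its summed relative level was higher in the brain, at 11.7 against 5.88 in the embryo.

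**Figure D5:**
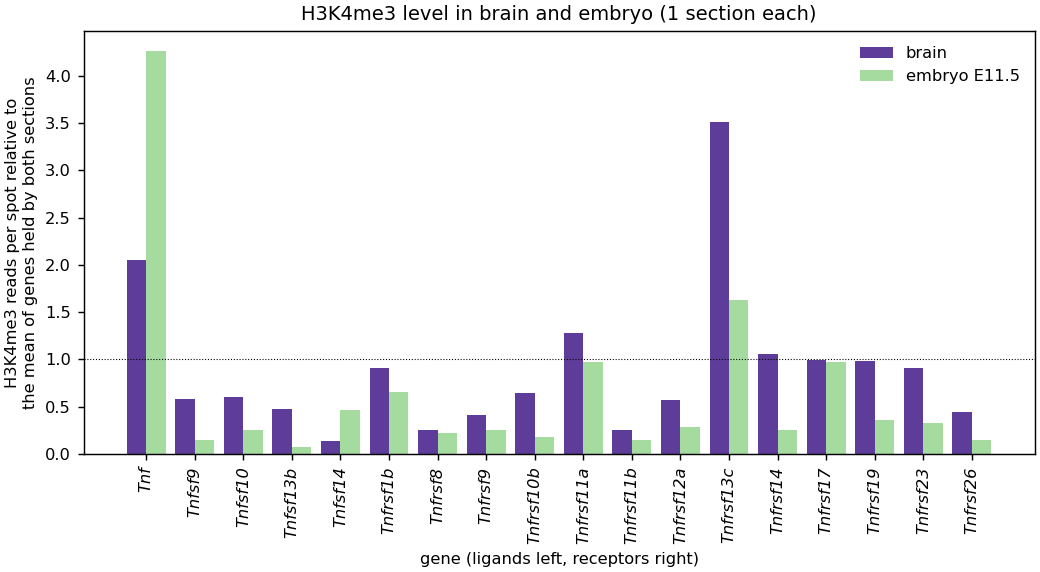
Relative H3K4me3 level (reads per spot over the mean of genes held by both sections) of the 18 members held by the brain (purple, left bars) and the embryo (green, right bars), 1 section each. Tnf (2.05 against 4.26) and Tnfsf14 (0.137 against 0.469) are lower in the brain, and Tnfrsf13c is higher there, at 3.51 against 1.62 in the embryo.

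Across all 6 sections, Tnfrsf13c differed in the paws by condition and had reads under every mark. Its total was 2569 reads in the CIA paw, 648 in the control paw, 176, 65 and 45 in the embryo under H3K27me3, H3K27ac and H3K4me3, and 639 in the brain. No member had more than 10% of its reads in a single spot where it had 20 or more reads in the section. No member's sum was marked as a lower bound in any section, which means that at most 10% of its reads lay beyond the range of exact recovery.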

How the data were processed

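The deposited files hold signal values per gene and array spot, quantile-normalised by the authors, and the submitters' processing notes name the tools MACS2, featureCounts and Bowtie2 with the builds mm9 and hg19, with roles not given in the sources used here. Between 46.3% and 68.9% of deposited values above 0 belonged to genes without reads, so reads were recovered from the order of genes at equal rank (counts were taken as exact up to the first one shared by under 5 genes, and sums with over 10% of reads beyond that were marked as lower bounds). The recovery was run on simulated data in which genes of equal count were ranked by the same gene order that the recovery assumes. It could therefore check the decoding under that rule, and not whether the authors' values followed the rule.

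Reads were averaged over spots, divided by the mean over genes held by both sections, and compared as log2 ratios with a pseudocount of 0.1 in Python 3.11.15 with numpy 2.4.6, pandas 2.3.3 and scipy 1.17.1. Intervals are exact 95% binomial or Poisson intervals for counting error. With 1 section per group there was no test. Named are members past 2-fold with 20 or more reads, the ligand and receptor pairs, and up to 4 genes per other list, and some further members are given for completeness. Members, lists and the choice of recovered reads were made with earlier results of these data known. Alternatives were the deposited values, other pseudocounts, columns, summaries over spots, filters and centring.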

Additional observations from a re-analysis of the deposited data

How the results depend on the processing

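Among values of single members, 236 of 266 paw values under the alternatives moved by no more than the counting error of the ratio. Reversal was counted only for members past 2-fold in the main setting, and in the paws none of these reversed. Changes of sign in members within 2-fold were not counted. Moves within the counting error also made up 329 of 347 values of H3K27me3 over H3K27ac and 330 of 345 of H3K27me3 over H3K4me3. For H3K27ac over H3K4me3 they made up 318 of 334, and for brain over embryo 193 of 210. With few reads this error is wide, as for Tnfsf11 in H3K27me3 over H3K27ac (1 read under each, interval -6.74 to 5.84). Staying within it is then nearly given by the depth and says little about the processing. In these other comparisons, 2 members past 2-fold reversed, both with under 20 reads. They were Tnfsf12 for H3K27me3 over H3K4me3 with the deposited values (-0.0133) and Tnfrsf18 for H3K27ac over H3K4me3 in odd columns (0.188).

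Counts of members past 2-fold moved more. The share of all genes past 2-fold under each setting is not set beside these counts, so they show only how the counts moved. With a pseudocount of 1, which shrinks low genes, the paws had 1 higher, H3K27me3 over H3K27ac 3 higher, H3K27me3 over H3K4me3 2 higher and 0 lower, H3K27ac over H3K4me3 1 lower, and brain over embryo 0 higher and 0 lower. With 0.01 the paws had 4 higher, H3K27me3 over H3K27ac 7 lower, H3K27me3 over H3K4me3 6 lower, and H3K27ac over H3K4me3 6 higher and 5 lower. With the deposited values, H3K27me3 over H3K27ac had 6 lower, H3K27ac over H3K4me3 5 higher and brain over embryo 4 lower. In odd columns H3K27me3 over H3K27ac had 7 lower and H3K27ac over H3K4me3 5 higher. In even columns H3K27me3 over H3K27ac had 5 lower, H3K27ac over H3K4me3 8 higher and 5 lower, and brain over embryo 1 lower. Another setting left out the highest 5% of each gene's own spot values, which by construction sets genes seen in fewer spots to 0. There H3K27me3 over H3K27ac had 10 higher, H3K27me3 over H3K4me3 1 lower, H3K27ac over H3K4me3 5 higher and brain over embryo 1 lower. With genes under 100 reads left out, fewer members were compared: H3K27me3 over H3K27ac had 3 higher, H3K27me3 over H3K4me3 2 higher and 0 lower, H3K27ac over H3K4me3 1 lower and brain over embryo 0 lower. By the share of spots the paws had 0 higher and brain over embryo 1 lower, and by the mean of spot shares brain over embryo had 1 lower. Centred on the median, the paws had 1 higher, H3K27ac over H3K4me3 5 lower and brain over embryo 2 higher. Where no construction of the alternative is named, the cause was not tested. Leaving out spots with fewer than 500 reads was chosen after seeing the data and moved no count by more than 1.5 times.

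No paired analysis was possible because each group holds 1 section. In the embryo, many members had fewer than 20 reads under both marks compared, so only large differences were detectable.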
